A study of Mus musculus with 7 samples.

Results

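The genes described are those of the mouse Atg8 family, which encode LC3 and GABARAP proteins, together with genes of autophagy cargo receptors. Members were taken as every probe set annotated to 1 of 9 named genes alone. This gave 12 of the 22625 tested probe sets and 7 of the 9 genes: Map1lc3a, Map1lc3b, Gabarap, Gabarapl1 and Gabarapl2 of the Atg8 family, with 9 probe sets, and the receptor genes Sqstm1 and Nbr1, with 3. No probe set in the annotation used here named Optn or Calcoco1, so these 2 genes were left out.

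The 7 arrays measured RNA of CD11c+ cells, taken by magnetic sorting from mouse spleen on day 7 after an allogeneic transplant of hematopoietic stem cells (allo-HSCT), in which the graft comes from a genetically different donor. A set of 3 arrays was labelled Atg16L1 hypomorphic and 4 arrays WT, and both genotypes are given on C57BL/6J. Every group shared the transplant, the day and the sort. The age was given as 8 weeks in the series design and as 9 weeks at collection in the sample protocol. A hypomorphic allele leaves part of a gene's function. The labels do not name the allele, do not say whether recipient, donor or both carried it, and do not say whether each array stands for its own animal, so the p-values given here measure only the spread between arrays.

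Macroautophagy encloses cytoplasm in a double membrane that fuses with the lysosome. Proteins of the Atg8 family are attached to the lipid phosphatidylethanolamine in that membrane by a conjugation machinery that includes the complex of Atg12, Atg5 and Atg16l1, and cargo receptors bind both ubiquitin-marked cargo and the attached LC3 or GABARAP. The receptor p62, the product of Sqstm1, is itself degraded by autophagy, so its protein level is often used as a readout of autophagic turnover. The arrays measured transcripts, not proteins or lipid attachment.

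All values are the authors' log2 values of probe sets, and a difference of 1 is a doubling of signal on that scale. Array medians lay between 5.46 and 5.53, and each array correlated with the others at a mean r of 0.990 to 0.993 across probe sets. With 3 and 4 arrays a group, precision is limited by their number. The 12 measured dendritic cell markers had a median log2 change of 0.05, with 7 positive and 5 negative, from -0.33 for Zbtb46 to 0.09 for Cd74. Of them, Itgax, which encodes CD11c, averaged 8.29 in hypomorph and 8.24 in wild-type arrays. H2-Aa averaged 12.07 in hypomorph and 11.99 in wild-type arrays. Transcripts of both genes were thus present in both groups. Transcripts of other cells were read too: neutrophil S100a8 averaged 13.64 in hypomorph and 13.81 in wild-type arrays, and red pulp macrophage Vcam1 averaged 13.09 in hypomorph and 12.85 in wild-type arrays. The targeted gene, Atg16l1, read 6.86, 6.76 and 6.94 in hypomorph arrays, against 7.42, 7.33, 7.26 and 7.20 in wild-type arrays. The highest hypomorph array was under the lowest wild-type array for it, with a log2 change of -0.45 (95% confidence interval -0.63 to -0.26) and a limma adjusted p of 0.462.

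Of the 12 probe sets, 11 had a higher mean in the hypomorph arrays and 1 a lower mean, with a median log2 change of 0.15 beside 0.00 over all tested probe sets, of which 50.7% had a change above 0. The median was 0.10 without hypomorph replicate 3. None of the 12 passed an adjusted p of 0.05, and neither did any other probe set on the array (0% called). At an unadjusted p under 0.05 there were 2 of 12, Sqstm1 and 1 probe set of Gabarapl1, where 4.35% of all probe sets were so called as higher. No member was so called as lower, where 3.34% of all probe sets were. The groups did not overlap for 1 of 12, a probe set of Nbr1, where 3.07% of all probe sets lay higher without overlap. Several probe sets measure the same gene on the same RNA, so the 12 are not independent of each other.

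**Figure D1:**
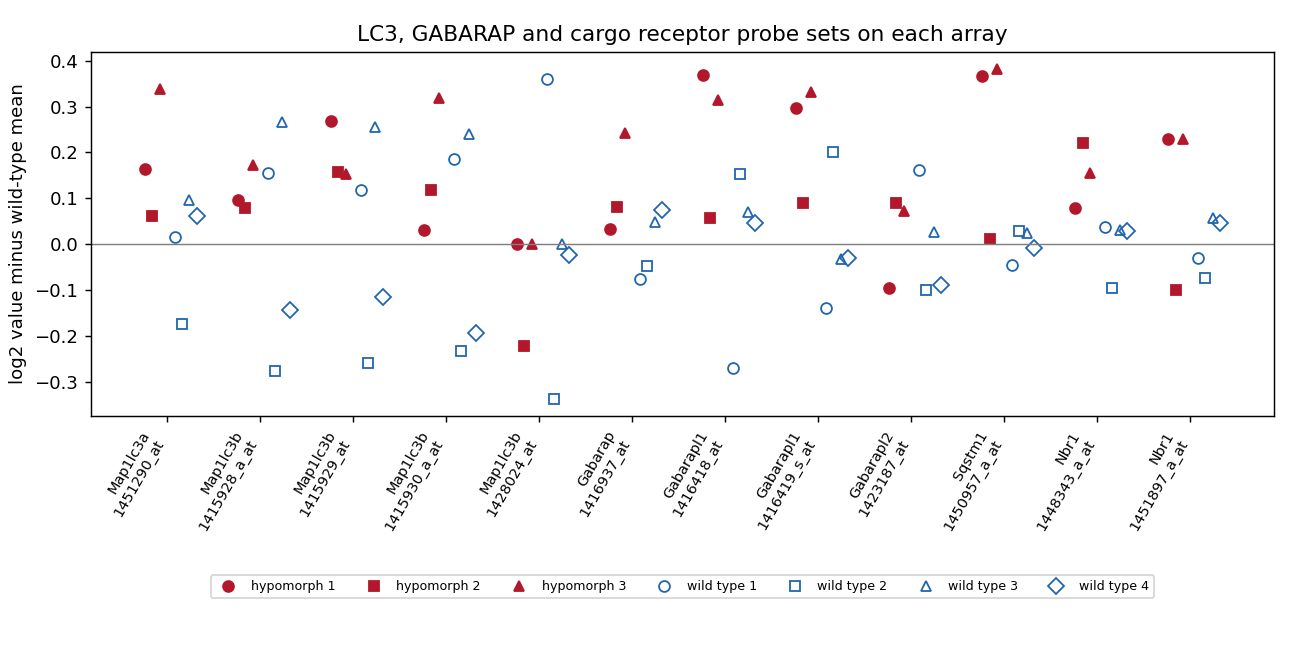
Log2 value of each of the 12 probe sets on each array, minus the mean of the wild-type arrays for that probe set (y axis, log2 units). Filled red symbols are the 3 hypomorph arrays and open blue symbols the 4 wild-type arrays, 1 symbol shape per replicate. The groups are apart only for Nbr1 1448343_a_at, and hypomorph replicate 3 (triangles) is highest for 6 probe sets.

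**Figure D2:**
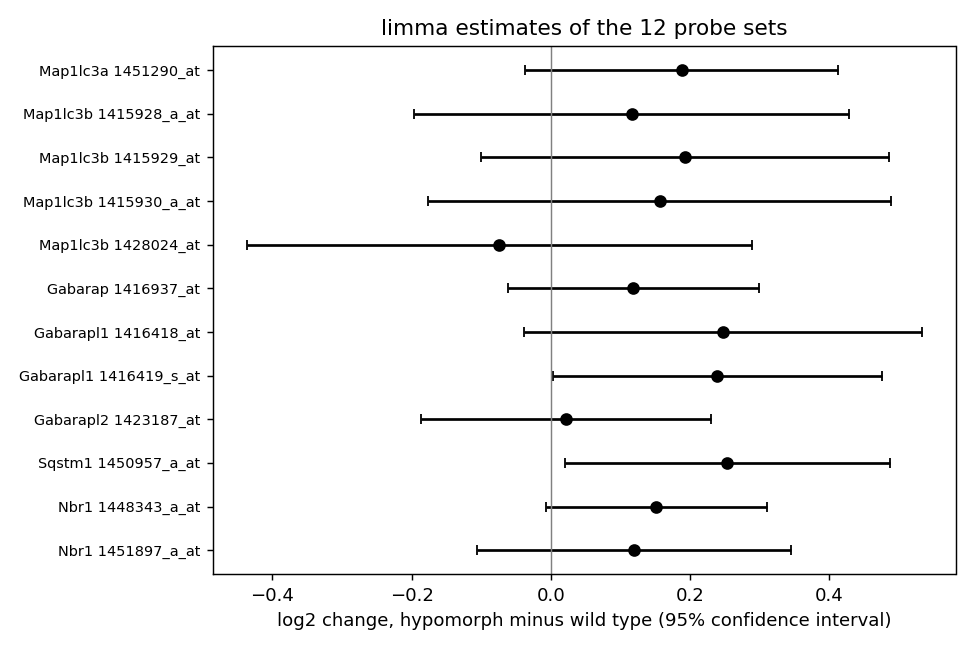
Limma estimate of the log2 change, hypomorph minus wild type (x axis), for each of the 12 probe sets, with its 95% confidence interval as a bar. The intervals of Sqstm1 and of Gabarapl1 1416419_s_at exclude 0, before any adjustment for the number of probe sets, and those of the other 10 include it.

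Promoter sequences are given for Sqstm1 and Gabarapl1, which had the smallest unadjusted p of the 7 genes, and for Map1lc3b, which had the most probe sets. They are from RefSeq (GRCm38.p6) and run 5′ to 3′ from 250 bases before to 30 bases after the annotated gene start, in lower case with any match to a searched motif in capitals. The motifs, searched on both strands, were CACGTG, the core bound by TFEB and its relatives, TGACNNNGC, the core of the antioxidant response element, TGTTTAC, a FoxO element, and TATAAA, the TATA box. The first is its own reverse complement, and these motifs did not overlap each other in the windows shown.
Sqstm1 promoter, chr11:50210791-50211070, minus strand: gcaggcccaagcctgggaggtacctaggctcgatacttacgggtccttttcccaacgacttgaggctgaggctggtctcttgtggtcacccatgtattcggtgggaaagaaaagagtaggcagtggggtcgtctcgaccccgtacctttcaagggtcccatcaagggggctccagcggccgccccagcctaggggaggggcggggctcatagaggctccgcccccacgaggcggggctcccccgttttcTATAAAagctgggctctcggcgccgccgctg
Gabarapl1 promoter, chr6:129532942-129533221, plus strand: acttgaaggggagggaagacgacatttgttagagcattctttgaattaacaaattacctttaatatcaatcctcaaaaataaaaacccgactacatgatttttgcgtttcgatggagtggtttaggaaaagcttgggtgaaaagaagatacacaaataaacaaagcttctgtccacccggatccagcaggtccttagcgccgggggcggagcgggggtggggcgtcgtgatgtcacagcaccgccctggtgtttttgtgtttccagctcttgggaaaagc
Map1lc3b promoter, chr8:121590188-121590467, plus strand: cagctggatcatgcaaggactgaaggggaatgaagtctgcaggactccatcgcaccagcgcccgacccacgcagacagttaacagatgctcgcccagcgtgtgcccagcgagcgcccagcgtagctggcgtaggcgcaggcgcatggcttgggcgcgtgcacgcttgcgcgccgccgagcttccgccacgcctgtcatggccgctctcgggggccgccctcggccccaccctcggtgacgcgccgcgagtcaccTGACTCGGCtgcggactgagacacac

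The Sqstm1 window held 1 TATAAA, present in 13.1% of 32851 promoter windows of that length, starting at position -1 relative to the annotated start. The Map1lc3b window held 1 TGACNNNGC, present in 11.5% of windows, at position 5, and the Gabarapl1 window held none of the 4 motifs. The windows of Gabarap, Gabarapl2 and both annotated starts of Nbr1 held none either, and Map1lc3a was not in the table. CACGTG was present in 6.79% and TGTTTAC in 3.49% of all windows. Guanine and cytosine made up 63.6% of the Sqstm1, 46.4% of the Gabarapl1 and 68.9% of the Map1lc3b window, beside a median of 52.5% over all windows. These matches describe the letters of the windows and no binding.

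Among the receptors, Sqstm1 encodes p62, which gathers ubiquitin-marked proteins into bodies and also holds the NRF2 inhibitor Keap1. Its probe set, 1450957_a_at, read 9.25, 8.90 and 9.27 in hypomorph arrays, against 8.84, 8.91, 8.91 and 8.88 in wild-type arrays. Hypomorph replicates 1 and 3 stood above every wild-type array, and hypomorph replicate 2 lay within the narrow wild-type range. The means were 9.14 ± 0.21 (SD, n = 3) in hypomorph and 8.88 ± 0.03 (SD, n = 4) in wild-type arrays, a log2 change of 0.25 (95% confidence interval 0.02 to 0.49), or 1.19-fold. The limma adjusted p was 0.644. A change of this size or larger, in either direction, was read for 12.4% of all probe sets. Without hypomorph replicate 2 the change was 0.38, with an adjusted p of 0.128, and with each other array left out in turn the lowest value was 0.19, without hypomorph replicate 3.

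Nbr1 encodes a receptor related to p62, with the same type of PB1, ubiquitin-binding and LC3-binding regions. Its probe set 1448343_a_at read 8.95, 9.09 and 9.03 in hypomorph arrays, against 8.91, 8.77, 8.90 and 8.90 in wild-type arrays. The groups did not overlap, the hypomorph arrays being the higher, and the nearest pair, hypomorph replicate 1 and wild-type replicate 1, were 0.04 apart. The log2 change was 0.15 (95% confidence interval -0.01 to 0.31), with a limma adjusted p of 0.644. Its spread was small: the SD within groups was 0.07, a value at or above that of only 8.93% of the probe sets in the same of 20 bins by mean level. The second probe set, 1451897_a_at, read 5.50, 5.18 and 5.51 in hypomorph arrays, against 5.25, 5.20, 5.33 and 5.32 in wild-type arrays. Here hypomorph replicate 2 was the lowest array of all, whereas on the other Nbr1 probe set it was the highest, and the groups overlapped. Its change was 0.12 (95% confidence interval -0.11 to 0.35, limma adjusted p = 0.750), and its mean lay below the array medians. With hypomorph replicate 2 left out the change was 0.23, and it was 0.07 with replicate 1 and 0.06 with replicate 3 of that group left out.

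In the Atg8 family, LC3 proteins are commonly placed at the growth of the autophagosome membrane and GABARAP proteins at later steps. Gabarapl1, a GABARAP-type gene, had 2 probe sets that agreed closely, with changes of 0.25 and 0.24. Probe set 1416419_s_at read 7.87, 7.67 and 7.91 in hypomorph arrays, against 7.44, 7.78, 7.55 and 7.55 in wild-type arrays. Hypomorph replicates 1 and 3 were above every wild-type array, while hypomorph replicate 2 was below wild-type replicate 2. The means were 7.82 ± 0.13 (SD, n = 3) in hypomorph and 7.58 ± 0.14 (SD, n = 4) in wild-type arrays, with a 95% confidence interval of the change from 0.00 to 0.48 and a limma adjusted p of 0.644. Probe set 1416418_at read 7.20, 6.89 and 7.15 in hypomorph arrays, against 6.56, 6.98, 6.90 and 6.88 in wild-type arrays, with the same order of hypomorph arrays except that replicate 1 was highest. Its interval ran from -0.04 to 0.53 (limma adjusted p = 0.651), and its change was 0.16 without wild-type replicate 1. On both probe sets wild-type replicate 1 was the lowest array, and the largest gap between them on 1 array, each taken relative to its wild-type mean, was 0.13. The suffix _s_at marks probes that the maker expected to match transcripts of more than 1 gene, although the annotation names Gabarapl1 alone.

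Map1lc3b encodes LC3B, the LC3 protein most used as a marker of autophagosomes, and had 4 probe sets. Probe set 1415930_a_at, the one of highest mean, read 10.71, 10.80 and 11.00 in hypomorph arrays, against 10.87, 10.45, 10.92 and 10.49 in wild-type arrays. The wild-type arrays fell into a higher pair, replicates 1 and 3, and a lower pair, replicates 2 and 4, and all hypomorph arrays lay above the lower pair, with replicates 1 and 2 below the higher one. Probe set 1415928_a_at read 10.17, 10.15 and 10.24 in hypomorph arrays, against 10.22, 9.79, 10.33 and 9.93 in wild-type arrays. Probe set 1415929_at read 9.15, 9.03 and 9.03 in hypomorph arrays, against 8.99, 8.62, 9.13 and 8.76 in wild-type arrays. The same split of the wild-type arrays into replicates 1 and 3 above replicates 2 and 4 was thus read on 3 probe sets of the gene, and on each of them all hypomorph arrays were above replicates 2 and 4. Changes of these 3 were 0.16, 0.12 and 0.19, with limma adjusted p of 0.777, 0.827 and 0.697, and intervals that all included 0. Single arrays moved these changes by over 1.5 times. Without wild-type replicate 2, of the lower pair, the changes were 0.08, 0.02 and 0.11. Without wild-type replicate 4 those of 1415930_a_at and 1415928_a_at were 0.09 and 0.07, and without wild-type replicate 3, of the higher pair, they were 0.24 and 0.20. The change of 1415930_a_at was 0.07 without hypomorph replicate 3. The spread within groups was wide for their level, at or above that of 80.3%, 77.7% and 67.0% of the probe sets in the same level bin.

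The fourth Map1lc3b probe set, 1428024_at, was the only 1 of the 12 with a lower mean in hypomorph arrays. It read 4.48, 4.25 and 4.48 in hypomorph arrays, against 4.84, 4.14, 4.48 and 4.45 in wild-type arrays. Its signal was dim, with a mean below the median of every array, and its change was -0.07 (95% confidence interval -0.44 to 0.29, limma adjusted p = 0.915). Hypomorph replicate 2 was the lowest hypomorph array here and wild-type replicate 1 the highest array of all. The change was 0.05 without wild-type replicate 1, 0.00 without hypomorph replicate 2, -0.19 without wild-type replicate 2 and -0.11 without either of the other hypomorph arrays.

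**Figure D3:**
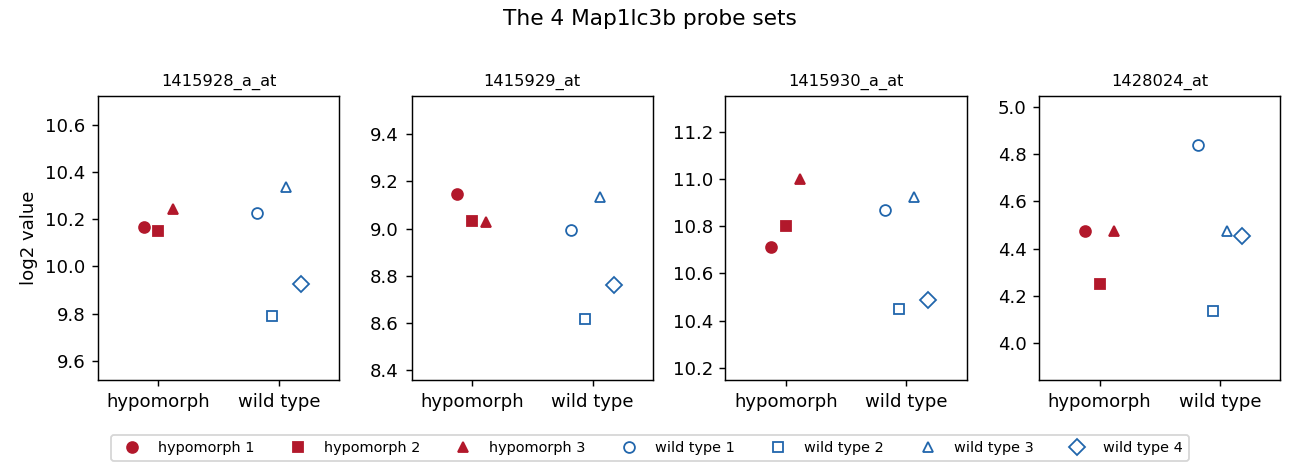
Log2 values (y axis, each panel spanning the same height) of the 4 Map1lc3b probe sets on the 3 hypomorph (filled red) and 4 wild-type (open blue) arrays. In the first 3 panels wild-type replicates 1 and 3 (circle, triangle) lie among the hypomorph values or close to them and wild-type replicates 2 and 4 (square, diamond) below them.

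Map1lc3a encodes LC3A. Its probe set 1451290_at read 6.79, 6.69 and 6.97 in hypomorph arrays, against 6.64, 6.45, 6.73 and 6.69 in wild-type arrays. Hypomorph replicates 1 and 3 were above every wild-type array, and hypomorph replicate 2 equalled wild-type replicate 4. The change was 0.19 (95% confidence interval -0.04 to 0.41, limma adjusted p = 0.656), and 0.11 without hypomorph replicate 3.

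Gabarap, the founding gene of its branch, was named for the binding of its protein to a GABA receptor. Its probe set 1416937_at read 10.23, 10.28 and 10.44 in hypomorph arrays, against 10.13, 10.15, 10.25 and 10.28 in wild-type arrays. All hypomorph arrays were above the wild-type mean, and 2 of them lay above every wild-type array, by 0.0072 for replicate 2 and 0.17 for replicate 3. The change was 0.12 (95% confidence interval -0.06 to 0.30, limma adjusted p = 0.698), and 0.06 without hypomorph replicate 3.

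Gabarapl2 encodes GATE-16, named as a Golgi-associated transport factor. Its probe set 1423187_at read 8.54, 8.72 and 8.71 in hypomorph arrays, against 8.80, 8.54, 8.66 and 8.54 in wild-type arrays. The groups overlapped widely, and the highest array was wild-type replicate 1. The change was 0.02 (95% confidence interval -0.19 to 0.23, limma adjusted p = 0.958), and it was negative, at -0.01 or nearer to 0, without hypomorph replicate 2 or 3 or wild-type replicate 2 or 4. It was 0.08 without replicate 1 of either group. Of the 7 genes it had the change nearest to 0, by the probe set of highest mean.

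Array by array, hypomorph replicates 1, 2 and 3 read above the wild-type mean for 11, 10 and 12 of the 12 probe sets. Wild-type replicates 1, 2, 3 and 4 did so for 7, 3, 11 and 5. Hypomorph replicate 3 was the highest array for 6 probe sets, and wild-type replicates 2 and 1 were the lowest for 7 and 4. The median of the 12, relative to the wild-type means, was 0.13, 0.08 and 0.24 in hypomorph arrays, against 0.03, -0.10, 0.05 and -0.02 in wild-type arrays. The group medians of arrays thus did not overlap, although wild-type replicate 3 lay within 0.03 of hypomorph replicate 2. By other summaries of the 12 the groups did overlap. Mean levels ran from 8.14 to 8.31 in hypomorph and from 7.98 to 8.17 in wild-type arrays. Summed linear signals ran from 6613 to 7305 in hypomorph and from 5595 to 6851 in wild-type arrays. Taken apart, both families overlapped between the groups in their medians too. The 9 Atg8 probe sets had medians of 0.10, 0.08 and 0.24 in hypomorph arrays, against 0.12, -0.17, 0.07 and -0.03 in wild-type arrays. The 3 receptor probe sets had 0.23, 0.01 and 0.23, against -0.03, -0.07, 0.03 and 0.03.

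Markers of other cell types differed between the same arrays. In bulk samples of this kind, a smaller number of cells of a type and less RNA per cell cannot be told apart. Array medians of 3 marker lists were apart between the groups, as those of the 12 probe sets were. How often the medians of a list lie apart by chance was not tested. All 4 measured plasma cell markers were higher in hypomorph arrays, with a median log2 change of 0.52. Their medians relative to the wild-type mean were 0.49, 0.30 and 0.61 in hypomorph arrays, against -0.04, -0.22, 0.15 and 0.15 in wild-type arrays, and their summed linear signal ran from 2940 to 3968 in hypomorph and from 2278 to 3233 in wild-type arrays. The groups did not overlap for 1 of the 4, where 2.43% of all genes lay higher without overlap. All 6 basophil or mast cell markers were lower in hypomorph arrays, with a median change of -0.84, and 3 of them were without overlap, where 2.72% of all genes lay lower in this way. Their medians were -0.62, -0.82 and -1.24 in hypomorph arrays, against -0.08, -0.00, -0.49 and 0.46 in wild-type arrays, with summed signals from 357 to 462 in hypomorph and from 614 to 1394 in wild-type arrays. Of 5 measured B cell markers 4 were lower, with a median change of -0.23 and with medians of -0.64, -0.31 and -0.08 in hypomorph arrays, against -0.04, -0.04, 0.04 and 0.11 in wild-type arrays. Their summed signal ran from 158 to 341 in hypomorph and from 308 to 353 in wild-type arrays. The groups did not overlap for 1 of the 5, where 2.72% of all genes lay lower without overlap. None of the markers in these 3 lists had a mean below the lower quartile of the arrays, but single values lay below that of their array. These were Ms4a2 on hypomorph replicates 2 and 3 and wild-type replicate 3, and Cd79a on hypomorph replicate 1. Cr2 was below it on hypomorph replicates 1 and 3 and wild-type replicate 1. The part of these cells in the values of the 12 probe sets was not tested.

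Medians of the other marker lists described here overlapped between the groups. All 11 red pulp macrophage markers had a higher mean in hypomorph arrays, with a median log2 change of 0.25, and their summed signal ran from 34668 to 40401 in hypomorph and from 23555 to 40045 in wild-type arrays. Relative to the wild-type mean their medians were 0.31, 0.16 and 0.29 in hypomorph arrays, against -0.51, 0.19, -0.11 and 0.42 in wild-type arrays. The wild-type array with the lowest macrophage median, replicate 1, was thus in the higher pair for Map1lc3b and was the lowest array for Gabarapl1. None of the 11 macrophage markers had a mean below the lower quartile of the arrays. Of 5 measured monocyte markers, 3 were higher and 2 lower, with medians of 0.12, 0.16 and 0.30 in hypomorph arrays, against -0.06, -0.22, 0.06 and 0.19 in wild-type arrays. Their summed signal ran from 14226 to 18703 in hypomorph and from 12776 to 16263 in wild-type arrays. T cell markers had medians of 0.01, 0.17 and -0.17 in hypomorph arrays, against 0.50, -0.39, 0.05 and -0.14 in wild-type arrays. Those of NK cells were 0.03, 0.15 and -0.02, against 0.28, -0.22, 0.08 and -0.04, with 2 of 5 markers below the lower quartile. Both lists thus had wild-type replicates 1 and 3 above replicates 2 and 4, as 3 Map1lc3b probe sets did. Macrophage medians had the reverse split. The part of macrophages, monocytes, T cells and NK cells in the values of the 12 probe sets was not tested.

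All 7 measured neutrophil markers had a lower mean in hypomorph arrays, and their summed signal ran from 37173 to 60857 in hypomorph and from 55348 to 61293 in wild-type arrays. Erythroid markers, lower for 5 of 6 measured, separated the hypomorph arrays from each other. Their medians were -0.83, 0.75 and -2.10 in hypomorph arrays, against 0.12, 0.44, -0.26 and -0.26 in wild-type arrays, with summed signals from 324 to 3646 in hypomorph and from 1743 to 2954 in wild-type arrays. Hypomorph replicate 2, which alone among the hypomorph arrays was high for erythroid markers, was the hypomorph array with the lowest Sqstm1, Gabarapl1 and Map1lc3a values. It was also the lowest of them for Map1lc3b 1415928_a_at and 1428024_at and for Nbr1 1451897_a_at. It was the highest of them for Nbr1 1448343_a_at and Gabarapl2, and lay between the others for Gabarap and the remaining Map1lc3b probe sets. Wild-type replicate 2, the wild-type array of highest erythroid median, was in turn the highest wild-type array for Sqstm1 and both Gabarapl1 probe sets. It was the lowest wild-type array for Map1lc3a, all 4 Map1lc3b probe sets, Gabarapl2 and both Nbr1 probe sets. Pancreatic acinar markers, lower for 4 of 5 measured, had medians of -2.65, -2.90 and -0.60 in hypomorph arrays, against -2.10, -0.71, 1.11 and 1.82 in wild-type arrays. Their summed signal ran from 677 to 1430 in hypomorph and from 701 to 4505 in wild-type arrays. The part of these lists in the values of the 12 probe sets was not tested either.

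**Figure D4:**
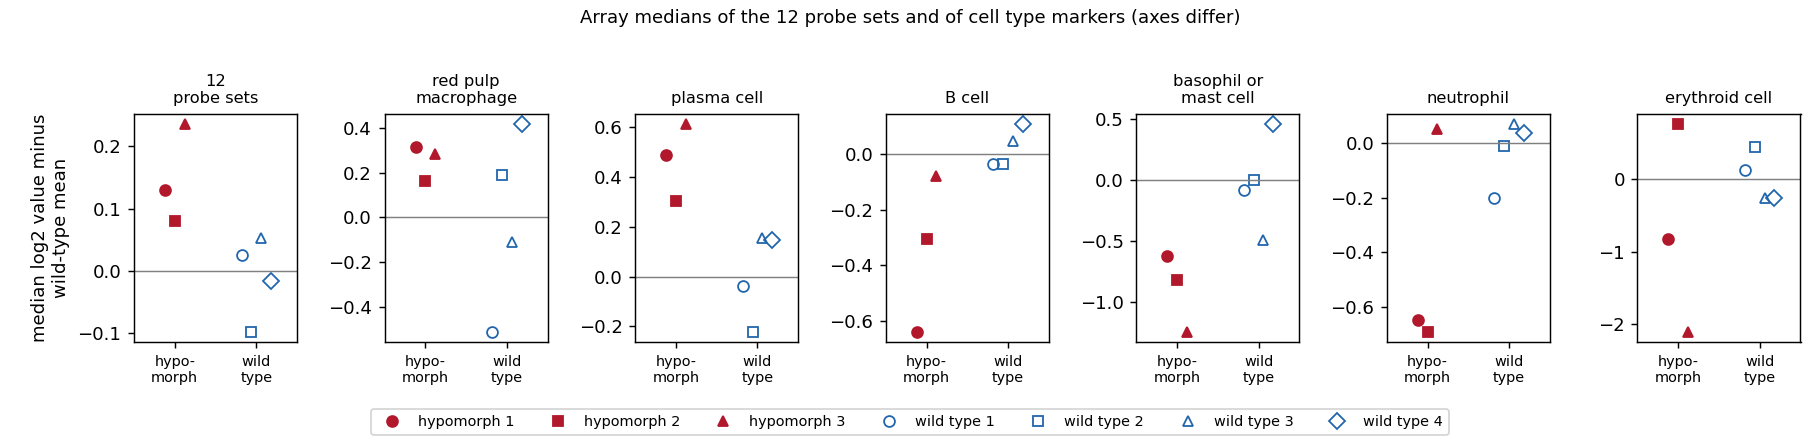
Median over the 12 probe sets and over the marker genes of 6 cell types, each probe set taken relative to its wild-type mean (y axis, log2 units, with a different scale in each panel), on the 3 hypomorph (filled red) and 4 wild-type (open blue) arrays. The groups are apart for the 12 probe sets, which span -0.10 to 0.24, and for plasma cell, B cell and basophil or mast cell markers, while erythroid markers span -2.10 to 0.75 and hypomorph replicates 2 and 3 (square, triangle) lie at its ends.

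The other steps of the pathway, other receptors, receptor partners and NRF2 targets were read from 6 lists with 89 genes. There were 74 measured, each with its probe set of highest mean. Of these, 43 had a positive and 31 a negative change, with a median of 0.02, beside -0.00 over all 12393 named genes. On the same footing, the 7 member genes were all positive, with a median of 0.16 and a range from 0.02 to 0.25. No gene of any of the 6 lists passed the adjusted threshold in the limma fit, and 6 were higher and 1 lower at an unadjusted p under 0.05, beside 3.57% higher and 3.59% lower of all 12393 genes taken in the same way. The 1 lower gene was Atg16l1, by which the groups are labelled, and it also counts among the 31 negative changes.

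The conjugation machinery that attaches Atg8 proteins had 4 positive and 4 negative changes among 8 measured genes, Atg16l1 being among the negative, with a median of -0.01. Besides Atg16l1 the smallest p belonged to Atg5, the partner of Atg12, which had a log2 change of 0.09 (limma adjusted p = 0.748). Of 18 initiation and nucleation genes 10 had positive changes, and the median was 0.03. The smallest p belonged to the initiating kinase gene Ulk1, with a log2 change of 0.32, and to Uvrag, a partner of Beclin, with a log2 change of 0.49. Both had an unadjusted p under 0.05 and a limma adjusted p of 0.644. For both, all 3 hypomorph arrays were above the wild-type mean and the groups overlapped. Of 13 genes for fusion with the lysosome 9 were positive, with a median of 0.03. The fusion genes of smallest p were Snap29, a SNARE of autophagosome fusion, with a log2 change of 0.34, and Vps18, a core subunit of the tethering complexes, with a log2 change of 0.24. Both had an unadjusted p under 0.05 and a limma adjusted p of 0.644. The groups did not overlap for Vps18, the hypomorph arrays being the higher.

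Among 15 other receptors and adaptors, 8 were positive and 7 negative, with a median of 0.02. Wdfy3, which encodes the large adaptor Alfy for p62-bound aggregates, read 8.18, 8.05 and 8.47 in hypomorph arrays, against 6.95, 7.63, 7.48 and 8.07 in wild-type arrays. Wild-type replicate 4 lay between the hypomorph arrays, so the groups overlapped, and the change was 0.70 (95% confidence interval 0.14 to 1.27, limma adjusted p = 0.644). Bnip3, a receptor of mitochondria, had a change of 0.41 with an interval that included 0. Genes of receptor partners, such as Keap1 and the kinase gene Tbk1, gave 6 positive changes among 11, a median of 0.00 and no gene with an unadjusted p under 0.05. Those of smallest p were Ikbkg, a subunit of the IkB kinase complex, with a log2 change of -0.12, and the myosin gene Myo6, with a log2 change of 0.13. Myo6 was dim, with a mean of 3.19, below the lower quartile of the arrays.

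Targets of NRF2, the factor that Keap1 restrains, gave 6 positive changes among 9 and a median of 0.20, and single members differed in sign. Srxn1, which repairs oxidised peroxiredoxins, read 5.66, 5.71 and 5.83 in hypomorph arrays, against 5.07, 5.39, 5.44 and 5.49 in wild-type arrays, without overlap. Its change was 0.39 (limma adjusted p = 0.644). Nqo1, a quinone reductase, read 5.45, 5.52 and 4.89 in hypomorph arrays, against 5.52, 5.99, 5.65 and 5.57 in wild-type arrays, a change of -0.40 (limma adjusted p = 0.644). Hmox1, also a target of NRF2, stands in the red pulp macrophage list as well. Of the 3 promoter windows shown, that of Map1lc3b alone held the core of the element NRF2 binds, which 11.5% of all windows held. Sequence outside these windows was not searched, so a gene without a match there may still have the element. A part of NRF2 in the values of the 12 probe sets was not tested.

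**Figure D5:**
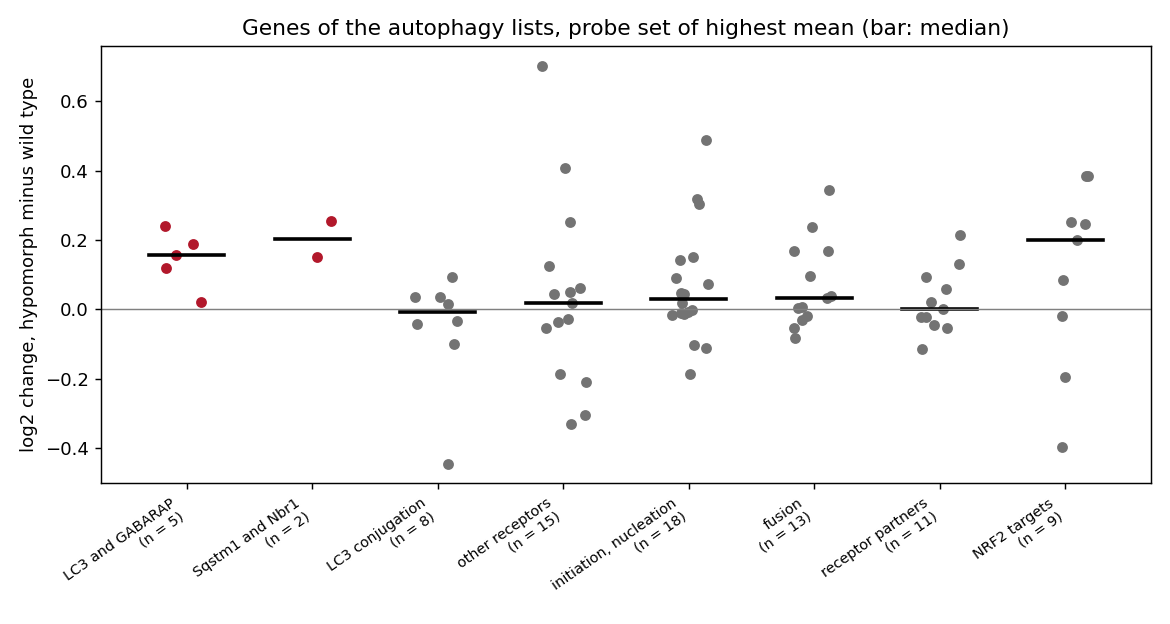
Log2 change, hypomorph minus wild type (y axis), of each measured gene by list, with the probe set of highest mean per gene as a point and the list median as a bar. The 7 genes of the LC3, GABARAP and receptor lists (red) lie from 0.02 to 0.25. The medians of the next 5 lists lie between -0.01 and 0.03, and that of the last list, NRF2 targets, is 0.20.

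The genes whose values over the 7 arrays were most like those of Sqstm1 were Ptpn5, Pdlim5 and Tm2d2, with root mean square differences of 0.02, 0.04 and 0.04 in log2 units after each gene was centred on its own mean. For comparison, Sqstm1 itself had a root mean square deviation of 0.17. Ptpn5 was dim, at 3.27, 2.94 and 3.32 in hypomorph arrays, against 2.89, 2.93, 2.94 and 2.87 in wild-type arrays. For Gabarapl1 1416419_s_at the nearest genes were Agap3, Ypel5 and Tle4, each at 0.06, where the probe set itself deviated by 0.17. Tle4 was dim too, at 3.52, 3.35 and 3.52 in hypomorph arrays, against 3.19, 3.48, 3.22 and 3.34 in wild-type arrays. With 7 arrays and 20379 probe sets naming 1 gene, all of which were searched, some near matches are to be found for any pattern.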

How the data were processed

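RNA of CD11c+ spleen cells was measured on 3 hypomorph and 4 wild-type Affymetrix GeneChips, with 100 ng of total RNA labelled per array, per the labels' protocols. The values deposited by the authors are log2 probe set summaries, made with Affymetrix Power Tools per the submitters' processing notes. The ways of background correction, summary and normalization, and the tool's version, were not given in the sources used here. Medians and quartiles of the arrays were nearly equal, so the values had been normalized between arrays, and they were used as deposited. Identical values made up 4.74% to 7.07% of probe sets in any pair of arrays.

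Of 22690 rows, 64 control rows and 1 without a value were left out. Names came from the platform annotation, updated by Entrez identifier with RefSeq (GRCm38.p6). Of 22625 probe sets, 20379 named 1 gene, 691 several and 1555 none. The test was limma 3.58.1 (R 4.3.3) with a single hypomorph term, lmFit followed by eBayes without a block, and p-values were adjusted by Benjamini-Hochberg over the 22625 probe sets at a threshold of 0.05. On simulated data with 10 runs of 200 changed among 22625 probe sets, this fit for hypomorph against wild type recovered 39.9% of log2 changes of 0.5, 80.4% of 1 and 97.4% of 2, and 5.6% of its calls were false. Changes as small as most of those reported were not simulated. The simulated noise was drawn independently for each probe set, so shifts shared by many probe sets of an array were not simulated either. The rates may thus differ for these arrays.

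Members, lists and the naming rule were chosen with earlier results of these data known. The rule named every member probe set, Atg16l1, up to 2 genes of smallest p in each other list, and 3 genes of most similar pattern for each of the 2 members of smallest p. Other genes (Itgax, H2-Aa, Zbtb46, Cd74, S100a8, Vcam1, Ms4a2, Cd79a, Cr2, Keap1, Tbk1, Hmox1) are named as markers or background. The lists of T and NK cells, megakaryocytes, plasmacytoid dendritic cells and stroma or endothelium had median log2 changes of -0.00, 0.09, -0.06, -0.07 and 0.25. For 2 of 6 stroma or endothelium markers the hypomorph arrays were higher without overlap, beside 2.43% of all genes. Array medians of that list were 0.35, 0.15 and 0.26 in hypomorph arrays, against -0.20, 0.16, 0.02 and 0.01 in wild-type arrays. For 1 of 5 plasmacytoid markers they were lower without overlap, beside 2.72% of all genes.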

Additional observations from a re-analysis of the deposited data

Results flagged for a closer look

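Of 13 probe sets checked for a wild-type array apart from the other 3, 12 of the members and 1 of Atg16l1, 1 was found: Nbr1 1448343_a_at on wild-type replicate 2, at 8.77, where the other wild-type arrays read 8.90 to 8.91. Its gap to the nearest was 0.93 of the range, above Dixon's critical value, which chance exceeds in about 5% of groups. Without this array the log2 change of the probe set was 0.12, against 0.15 with it, with a limma adjusted p of 0.812. Over the alternatives the adjusted p ran from 0.558 to 0.827.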

How the results depend on the processing

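Of 182 values of the 12 probe sets and Atg16l1 under 14 alternatives each, 175 kept their direction, 7 reversed and 0 passed the adjusted threshold. Gabarapl2 reversed with the replicate block (-0.0078) and with single arrays left out, which gave -0.011 to 0.081, and Map1lc3b 1428024_at ran from -0.19 to 0.047 with single arrays left out, reversing without hypomorph replicate 2 (0.00081) and without wild-type replicate 1. The median change of the 12 ran from 0.10 to 0.21 with single arrays left out and from 0.14 to 0.16 otherwise (with the replicate block 0.15), and positive probe sets numbered 10 to 12. Over all probe sets, those higher at the adjusted threshold numbered 0 as analysed, 3 with array weights, 5 with arrays centred on their median, 3 with a mean log2 value of at least 4, 5 with trend and robust settings, and 0 to 2 with single arrays left out. None was lower at that threshold in any of the 14. At an unadjusted p under 0.05, leaving out single arrays gave 598 to 1411 higher, where 984 were found with all arrays, the fewest without hypomorph replicate 1, and 431 to 1578 lower, where 755 were found, the fewest without wild-type replicate 2 and the most without hypomorph replicate 2. Hypomorph replicate 1 left out gave 497 lower. The cause was not tested. Same-numbered arrays share no stated source. Their deviations from the group means correlated at 0.102, 0.0977 and 0.339, the last being the largest of all pairs. Differently numbered arrays ran from -0.256 to 0.207, the highest being hypomorph replicate 1 with wild-type replicate 2. As the labels give no pairing, the numbers were not taken as pairs in the main fit. Shared processing by number was not tested. The block, in which wild-type replicate 4 has no partner and so adds nothing to the change, altered no call. Leaving out 1 array moved the change by over 1.5 times or reversed it for 9 of these 13. Probe sets of low signal, 1428024_at and 1451897_a_at, limit what can be read from them.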
